A study of Mus musculus with 2 samples.

Results

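Extracellular matrix and collagen genes were followed through the retina of mice in which Cre can recombine the floxed alleles of Dnmt1, Dnmt3a and Dnmt3b. The set was a list of 48 gene symbols: fibrillar collagens, other collagens, procollagen processing enzymes, basement membrane components, matrix glycoproteins, neural matrix genes and small leucine-rich proteoglycans. All 48 were found among the 23356 symbols of the deposited transcript table, and each gene's level is the sum of FPKM (fragments per kilobase of transcript, scaled to library size) over its transcripts. RNA came from whole retina at postnatal day 15, with 1 library of each genotype. The triple mutant library came from a retina with floxed alleles of all 3 genes that was positive for the Rx-Cre transgene, strain label C57BL/7. The control library carried the same floxed alleles and was Rx-Cre negative, strain label C57BL/6. Rx is an eye field transcription factor gene, so the transgene is directed to the retinal lineage, whereas endothelium, microglia and astrocytes enter the retina from outside it. The labels do not say in which of these cells Cre acted. There were no replicates, so nothing below was tested between genotypes, and every difference is one between these 2 libraries.

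The extracellular matrix of the retina is sparse compared with that of connective tissue. Basement membranes of type IV collagen, laminins, nidogens and heparan sulfate proteoglycans lie at the vitreal surface, around the blood vessels and under the pigment epithelium, whereas lecticans and tenascins form a matrix between neurons. Fibrillar collagens are made as procollagens: hydroxylases and a chaperone act in the endoplasmic reticulum, Bmp1 removes the C-terminal propeptide with the help of Pcolce proteins, and lysyl oxidases cross-link the fibrils.

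A gene counted as measured where either library had 1 FPKM or more, and as higher or lower with a log2 ratio of FPKM + 1, mutant over control, of at least 1 either way. Of all 13280 measured genes, this size rule put 1.84% higher and 0.648% lower in the mutant library. Each kb of transcript at 1 FPKM rested on about 56.3 fragments in the mutant library and 48.4 in the control library, as read from the spacing of the lowest values. Of the targeted genes, Dnmt1 had 11.6 FPKM in the mutant library against 21.7 in the control library, Dnmt3a had 56.0 against 87.4, and Dnmt3b had 0.827 against 1.03. Measured rod genes were abundant in both libraries, with Gnat1 at 3211 FPKM in the mutant library and 4266 in the control library. Of 8 rod genes listed, 1 stood at 4625 FPKM in the mutant library and at 0 in the control library. It did not count as measured because of its status in the authors' deposited table. Markers of neighbouring tissue and of immune cells differed between the libraries. Of 10 measured lens markers, all with ratios below 0, 9 were past the size rule, with summed FPKM of 46.3 in the mutant and 239 in the control library, and the lens gene Lim2 was listed at 0 in the mutant library. Of 12 measured pigment cell markers 9 were lower by the rule and 11 lay below 0, with sums of 353 FPKM in the mutant and 464 in the control library, most of it Rlbp1, also a Mueller glia gene (343 and 309). Of 12 microglia and macrophage markers 8 were higher by the rule and all 12 lay above 0, with sums of 132 FPKM in the mutant and 32.6 in the control library. In whole tissue, fewer cells of a type and less RNA per cell cannot be told apart.

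Of the matrix genes, 1 was higher in the mutant library by the size rule, 1 was lower, and 41 lay between. Of the 48 members, 43 were measured, and the other 5 (Col1a1, Lox, Lama2, Dcn and Lum) were under 1 FPKM in both libraries. Pcolce was the 1 member higher, beside 1.84% of all measured genes. Pcolce2, its paralogue, was the 1 member lower, beside 0.648% of all measured genes. The members' median log2 ratio was 0.02, with 22 above 0 and 21 below, and 36 of 43 lay within 0.5 of 0 (83.7%, against 89.9% of all measured genes). The other 7 were Pcolce, Agrn and Col9a1 above and Pcolce2, Tnr, Fbn1 and Col4a3 below. In the authors' deposited table, 1 of 66 member transcripts was marked significant, that of Pcolce, with a q value of 0.0184. That call compares the reads of these 2 libraries, not the genotypes, and 69 of 30608 transcripts in the authors' deposited table carried it.

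**Figure D1:**
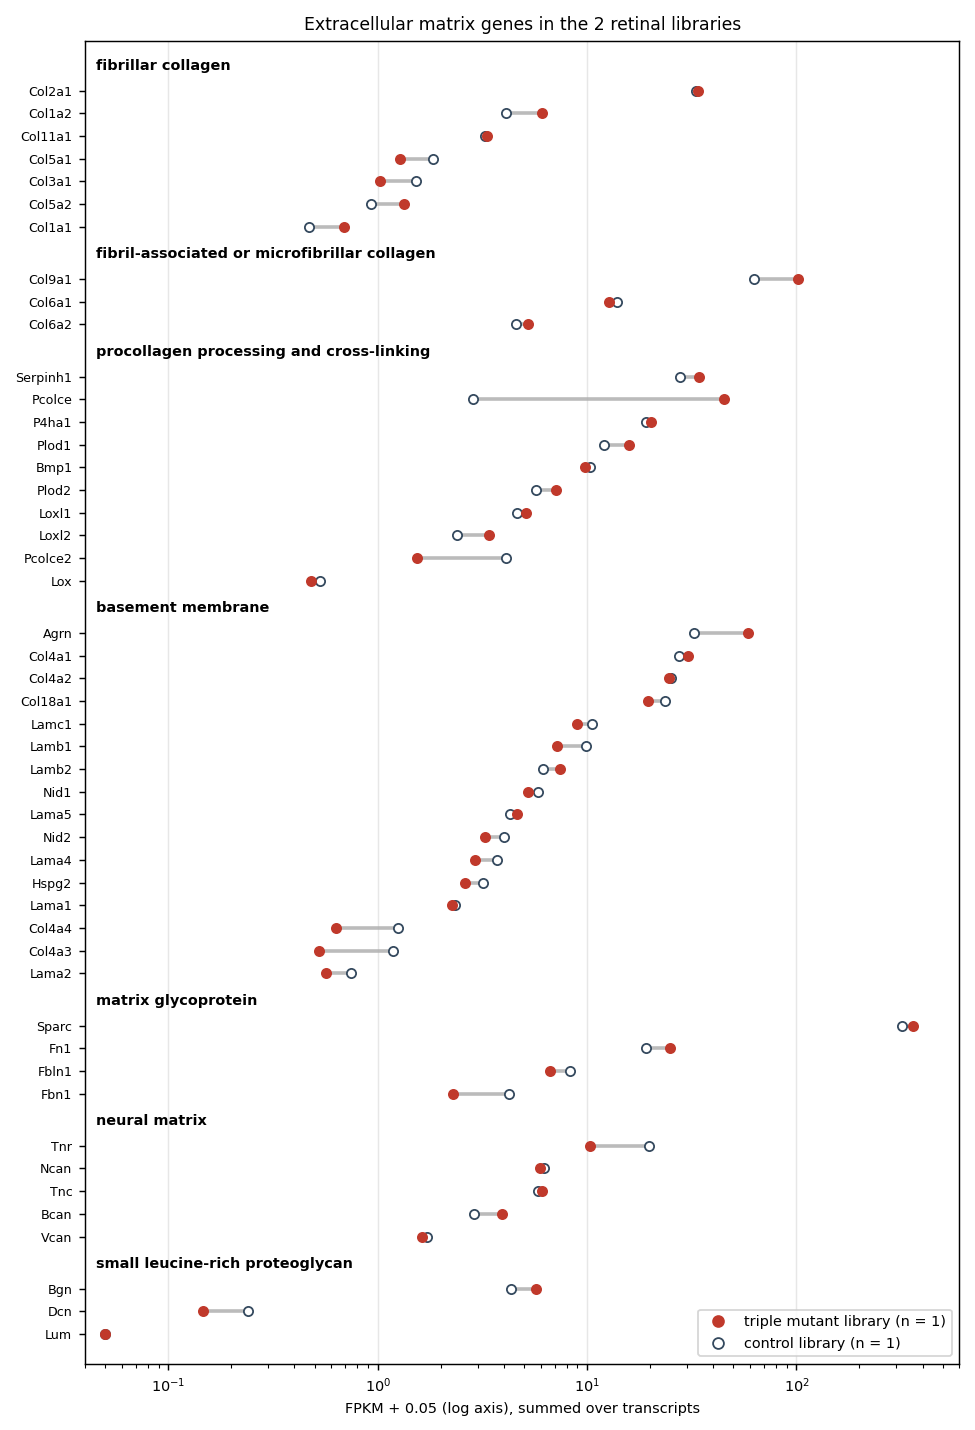
FPKM + 0.05 on a log axis for the 48 members, grouped by role and ordered by mean level, with 1 filled point for the triple mutant library and 1 open point for the control library; grey lines join the points of a gene. Pcolce has the widest gap, at 44.9 FPKM in the mutant and 2.80 in the control library, and Lum is listed at 0 in both.

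**Figure D2:**
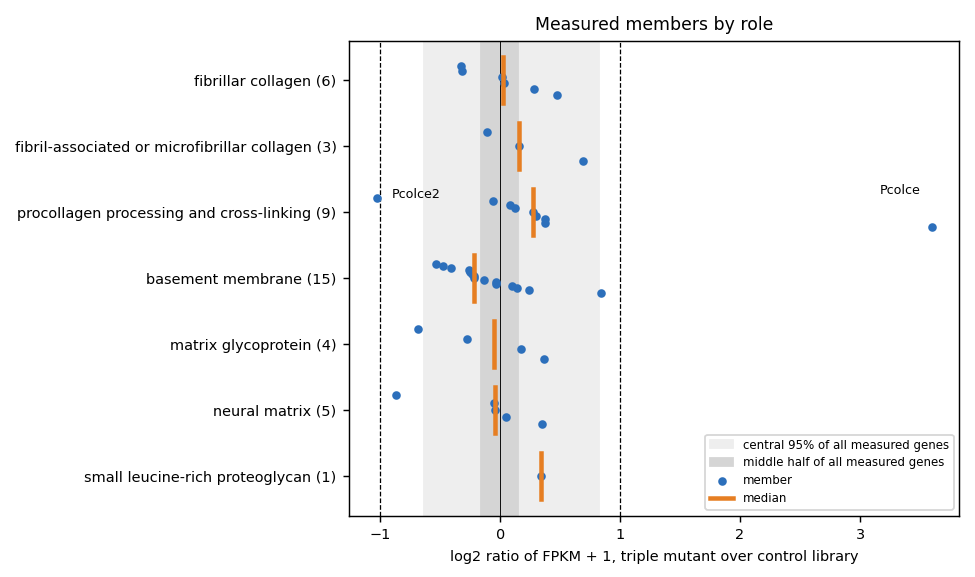
Log2 ratio of FPKM + 1, triple mutant over control library, for the 43 measured members (1 point each) by role, with the class median as a bar, the ranges of all measured genes as grey bands and the size rule of 1 as dashed lines. Pcolce at 3.60 and Pcolce2 at -1.03 lie past the dashed lines, and basement membrane genes have a median of -0.22.

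Procollagen processing and cross-linking genes held both members past the size rule. Pcolce, which encodes the secreted procollagen C-endopeptidase enhancer, had 44.9 FPKM in the mutant library and 2.80 FPKM in the control library, 16.1-fold higher (95% counting interval 13.9 to 18.6, which covers counting error only, as do all intervals below). Its ratio ranked 13 among the 10133 genes that reached 5 FPKM in either library. Pcolce2, which encodes a second enhancer of the same kind, had 1.49 FPKM in the mutant library and 4.07 in the control library, 36.6% of the control level (32.3 to 41.5). Its log2 ratio of -1.03 lay at the threshold. It was -0.98 in the other deposited table, where the median of all measured genes was 0.05, and -0.48 with a pseudocount of 5 FPKM. The call is lost in both. The ratio of Pcolce to Pcolce2 in FPKM was thus 30.1 in the mutant library and 0.687 in the control library. Pcolce had the highest FPKM of this class in the mutant library. In the control library it stood below every other measured gene of the class except Loxl2.

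The protease that Pcolce proteins enhance showed no such difference: Bmp1 had 9.74 FPKM in the mutant library and 10.2 in the control library. The other measured enzymes were slightly higher in the mutant library, none by the size rule. Serpinh1, the collagen chaperone also called Hsp47, had 34.1 FPKM in the mutant library and 27.6 in the control library. P4ha1, a catalytic subunit of prolyl 4-hydroxylase, had 20.2 and 19.1 FPKM in the mutant and control libraries. The lysyl hydroxylase gene Plod1 had 15.8 FPKM in the mutant library against 11.9 in the control library, 1.32-fold higher (1.25 to 1.40), and Plod2 had 7.03 against 5.65. Of the lysyl oxidases, Loxl1 had 5.08 FPKM in the mutant library and 4.58 in the control library, and Loxl2 had 3.35 and 2.35. Lox was low in both, at 0.430 FPKM in the mutant and 0.479 in the control library. With Pcolce left out, the FPKM of the other 9 genes of the class summed to 97.2 in the mutant library and 86.0 in the control library.

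The sequences before the starts of the 2 enhancer genes are given because these genes differed in opposite directions; those of Agrn and Tnr follow because they had the next largest ratios either way. Each is the 250 bases before the RefSeq start (GRCm38.p6), read 5′ to 3′ on the gene's strand, with CG dinucleotides, the main target of DNA methyltransferases, in capitals. The windows are chr5:137611405-137611654, minus strand for Pcolce, chr9:95637378-95637627, plus strand for Pcolce2, chr4:156197489-156197738, minus strand for Agrn and chr1:159523519-159523768, plus strand for Tnr. The Pcolce window lies inside the GENCODE span of that gene, which reaches 137613784. GENCODE thus places a start farther upstream, and the sequence before it was not examined.
Pcolce: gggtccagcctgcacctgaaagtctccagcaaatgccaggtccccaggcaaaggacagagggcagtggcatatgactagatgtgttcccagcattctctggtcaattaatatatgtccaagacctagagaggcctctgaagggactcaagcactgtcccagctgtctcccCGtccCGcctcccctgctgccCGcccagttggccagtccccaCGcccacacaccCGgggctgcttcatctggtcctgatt
Pcolce2: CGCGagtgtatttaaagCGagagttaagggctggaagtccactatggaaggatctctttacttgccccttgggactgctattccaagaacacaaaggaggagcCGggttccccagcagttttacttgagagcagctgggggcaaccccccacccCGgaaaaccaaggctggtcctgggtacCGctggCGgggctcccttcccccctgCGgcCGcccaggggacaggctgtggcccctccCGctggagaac
Agrn: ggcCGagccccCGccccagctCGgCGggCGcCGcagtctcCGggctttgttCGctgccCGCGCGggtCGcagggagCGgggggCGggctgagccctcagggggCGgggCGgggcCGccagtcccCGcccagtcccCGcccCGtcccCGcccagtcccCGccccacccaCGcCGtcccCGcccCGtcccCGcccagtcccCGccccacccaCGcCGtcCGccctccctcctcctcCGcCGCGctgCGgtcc
Tnr: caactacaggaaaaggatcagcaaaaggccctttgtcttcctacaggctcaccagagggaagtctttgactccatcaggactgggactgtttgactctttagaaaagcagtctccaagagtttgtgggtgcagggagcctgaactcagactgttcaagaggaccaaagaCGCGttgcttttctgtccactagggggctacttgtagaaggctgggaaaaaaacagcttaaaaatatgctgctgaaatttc
The Pcolce window holds 5 CG dinucleotides and that of Pcolce2 holds 10, against a median of 6 over all 32851 RefSeq windows of this length and of 16 (lower quartile 9) over the windows of measured genes. The Agrn window holds 35, more than 97.0% of all windows, and the Tnr window 2. On either strand, the interferon-stimulated response element core GAAANNGAAA is absent from all 4 windows and present in 2.98% of all windows. The STAT motif TTCNNNGAA occurs 1 time in the Pcolce2 window and is absent from the other 3, against 7.02% of all windows with a match.

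Pcolce (chromosome 5, 137605103 to 137613784, minus strand, GENCODE M21 on GRCm38) was compared with the genes around it, a comparison chosen after its value was seen. Of 9 genes of the deposited table within 50 kb, 8 were measured and none was past the size rule, with log2 ratios from -0.73 to 0.90. Mospd3, on its downstream side, had 37.2 FPKM in the mutant library and 29.6 in the control library. Fbxo24, on its upstream side and on the same strand, had the highest ratio of them, with 3.65 FPKM in the mutant library and 1.49 in the control library. Sap25 had the lowest, with 2.16 FPKM in the mutant library and 4.23 in the control library. GENCODE has exons shared by Pcolce and Fbxo24, although the loci in the deposited table do not overlap. GENCODE also has a gene antisense to Pcolce, Gm36266, and fragments of the 2 cannot be told apart without strand. The part of shared exons in the Pcolce and Fbxo24 values was not tested.

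**Figure D3:**
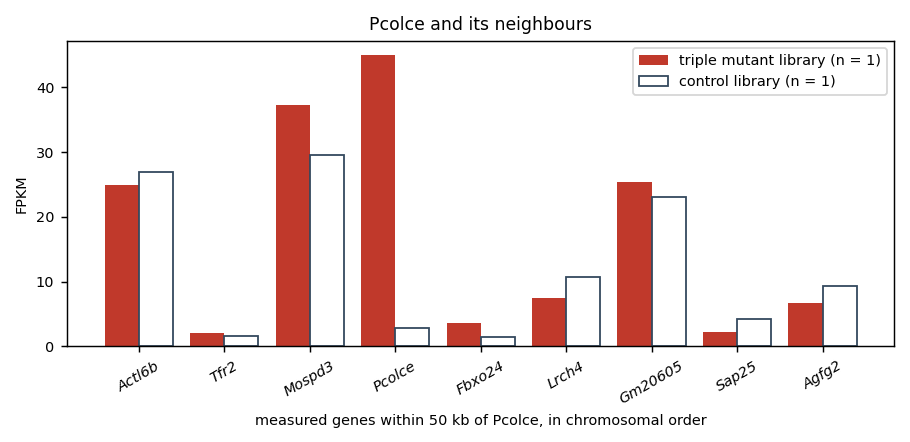
FPKM of Pcolce and its 8 measured neighbours within 50 kb, in chromosomal order, with 1 bar for the triple mutant library (left) and 1 for the control library (right). Pcolce stands at 44.9 and 2.80 FPKM in the mutant and control libraries, and its neighbours differ by log2 ratios from -0.73 to 0.90.

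Fibrillar collagens, the substrates of this machinery, did not differ by the size rule. Their FPKM summed to 47.2 in the mutant library and 44.9 in the control library, and the median log2 ratio of the 6 measured chains was 0.02. Col2a1, the cartilage and vitreous collagen chain, made up most of this, with 33.8 FPKM in the mutant library and 33.1 in the control library. Col11a1, its partner in heterotypic fibrils, had 3.27 and 3.22 FPKM in the mutant and control libraries, with an interval for the fold that includes 1 (0.938 to 1.10). The type I chain Col1a2 had 6.02 FPKM in the mutant library and 4.06 in the control library, 1.48-fold higher (1.37 to 1.60). Col1a1, which pairs with Col1a2 in type I collagen, had 0.640 FPKM in the mutant library and 0.418 in the control library. Col1a2 thus stood 9.40 times above Col1a1 in FPKM in the mutant library and 9.71 times in the control library. The chains of fibrils with types III and V were low and went both ways. Col3a1 had 0.977 FPKM in the mutant library against 1.48 in the control library, and Col5a1 had 1.23 against 1.78, 68.8% of the control level (61.5 to 77.0). Col5a2 had 1.28 FPKM in the mutant library against 0.881 in the control library, 1.46-fold higher (1.25 to 1.70).

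Among the collagens that decorate fibrils or form microfibrils, Col9a1 had the highest ratio, short of the size rule. Col9a1, a chain of the fibril-associated type IX collagen of vitreous and cartilage, had 101 FPKM in the mutant library and 62.3 in the control library, 1.62-fold higher (1.59 to 1.66), and was the most abundant collagen of the set in both. This value is that of 1 transcript, NM_007740. In the other deposited table NM_007740 had only 0.0830 and 0.164 FPKM in the mutant and control libraries, while the gene's summed log2 ratio was 0.74. Another transcript thus carried most of the mutant level there, and the interval, which uses the length of NM_007740, does not cover this. Its partner chains, which are not members, were closer between the libraries, with Col9a2 at 19.2 FPKM in the mutant and 14.9 in the control library and Col9a3 at 20.4 and 19.8. The microfibrillar chains Col6a1 (12.7 FPKM in the mutant library, 13.8 in the control library) and Col6a2 (5.15 and 4.50) went opposite ways by small amounts.

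More basement membrane genes lay below their control level than above it, and none was past the size rule. Of 15 measured, 11 lay below 0 and 4 above (Agrn, Lamb2, Col4a1 and Lama5). In the other deposited table Col4a2 and Lama1 also lay above 0, at log2 ratios of 0.02 and 0.01. Both were below the median of 0.05 over all genes measured in that table. The median log2 ratio of the class was -0.22, against 0.00 for all measured genes. That median was -0.11 with a pseudocount of 5 FPKM and -0.09 under a filter of 5 FPKM. The summed FPKM of the class ran the other way, at 179 in the mutant library and 161 in the control library. Agrn, the heparan sulfate proteoglycan agrin, had 58.7 FPKM in the mutant library and 32.4 in the control library, 1.81-fold higher (1.77 to 1.86), a log2 ratio of 0.84. The major type IV chains stood close in both libraries: Col4a1 had 30.3 FPKM in the mutant library and 27.4 in the control library, and Col4a2 had 24.4 and 25.1. These genes start next to each other on opposite strands of chromosome 8 and share exon bases in GENCODE. The alternative chains Col4a3 and Col4a4, which form a separate network with Col4a5, were the lowest ratios of the class. Col4a3 had 0.477 FPKM in the mutant library and 1.14 in the control library, 41.9% of the control level (35.6 to 49.2), and Col4a4 had 0.580 and 1.20, 48.5% (42.2 to 55.6). Their low levels keep both within the size rule, because the added 1 FPKM damps the ratio. Col4a5, not a member, had 3.94 FPKM in the mutant library and 4.85 in the control library.

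The laminin chains mostly lay below their control level. Lamc1, the gamma chain of most laminins, had 8.90 FPKM in the mutant library and 10.5 in the control library, 84.5% of the control level (80.7 to 88.4). Lamb1 had 7.11 FPKM in the mutant library against 9.78 in the control library, 72.7% (68.7 to 77.0), and Lama4, the alpha chain of vessel basement membranes, had 2.88 against 3.64. Lamb2, a beta chain of the retinal surface and of synapses, went the other way, with 7.36 FPKM in the mutant library and 6.08 in the control library. The alpha chain genes Lama1 (2.20 FPKM in the mutant library, 2.28 in the control library) and Lama5 (4.58 and 4.22) differed little. The linker genes Nid1 (5.18 and 5.77 FPKM in the mutant and control libraries) and Nid2 (3.22 and 3.98), the perlecan gene Hspg2 (2.56 and 3.15) and the endostatin precursor gene Col18a1 (19.5 and 23.4) were all lower in the mutant library by small amounts. Endothelial and pericyte markers had a median log2 ratio of -0.24 over 18 measured genes, with summed FPKM of 195 in the mutant and 217 in the control library. Their part in the basement membrane values was not tested, nor was that of the lens and pigment cell markers given above.

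Of the matrix glycoproteins, Sparc dominated the whole set. This collagen-binding matricellular protein gene had 359 FPKM in the mutant library and 319 in the control library, 1.13-fold higher (1.11 to 1.14), out of a sum over all members of 913 and 766 in the mutant and control libraries. In the other deposited table the same Sparc transcript had 264 and 221 FPKM in the mutant and control libraries. The gene's summed log2 ratio was 0.23 there and 0.17 here, and the median of all measured genes there was 0.05. The interval does not cover this difference between tables. Fn1, fibronectin, had 24.7 FPKM in the mutant library and 19.0 in the control library. The microfibril gene Fbn1 had 2.23 FPKM in the mutant library and 4.19 in the control library, 53.2% of the control level (49.5 to 57.2), and Fbln1, fibulin 1, had 6.60 and 8.22. Both microfibril and fibulin genes were thus lower, and both abundant glycoproteins were higher. Of the small leucine-rich proteoglycans, which bind collagen fibrils, Bgn (biglycan) had 5.66 FPKM in the mutant library and 4.27 in the control library. Dcn (decorin) had 0.0973 and 0.191 FPKM in the mutant and control libraries, resting on about 9 and 15 fragments, and Lum (lumican) was listed at 0 in both.

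In the neural matrix, Tnr had the lowest ratio and Bcan the highest, neither past the size rule. Tnr, which encodes the tenascin of perineuronal nets, had 10.3 FPKM in the mutant library and 19.7 in the control library, 52.4% of the control level (50.9 to 54.0), a log2 ratio of -0.87. In the authors' deposited table its q value was 0.442, the second lowest among member transcripts. Tnc, the other tenascin, had 6.02 FPKM in the mutant library and 5.79 in the control library. The lecticans Ncan (5.94 FPKM in the mutant library, 6.17 in the control library) and Vcan (1.58 and 1.68) differed by log2 ratios of -0.05 each. Bcan, the lectican brevican, had 3.89 FPKM in the mutant library and 2.84 in the control library, a log2 ratio of 0.35 that was 0.66 for its most abundant transcript alone. The intervals of Tnc and Ncan include 1.

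Sums hid differences between transcripts in a few genes. Of the 2 Bcan transcripts, NM_007529 had 2.98 FPKM in the mutant library and 1.51 in the control library, and NM_001109758 had 0.909 and 1.33. The share of NM_007529 was thus 76.6% in the mutant and 53.2% in the control library. For Col18a1, NM_001109991 had 2.13 FPKM in the mutant library and 5.08 in the control library, whereas NM_009929 had 17.4 and 18.3, so most of the difference in the sum lay in the first. For Fn1, NM_010233, the longest transcript listed, had 6.83 FPKM in the mutant library and 3.99 in the control library, while the most abundant, NM_001276410, had 10.2 and 9.64. The Vcan transcript NM_001134475 had 0.567 FPKM in the mutant library and 0.00134 in the control library, while NM_019389 had 0.793 and 1.20. These splits come from the authors' estimation of shared fragments and carry no error here.

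The promoters of the members were set beside their ratios. RefSeq windows were matched for 32 of the 48 members, taking for each the start nearest to the edge of its deposited locus. Their median was 11 CG dinucleotides in 250 bases, against 16 over the 9822 measured genes that had a window. For the latter the first window in coordinate order was taken, so the 2 medians rest on windows chosen by different rules. The members with the largest ratios had few, intermediate or many CG dinucleotides. Pcolce holds 5, Col9a1 holds 0 and Agrn holds 35, and the lower genes Tnr, Pcolce2 and Fbn1 hold 2, 10 and 13. The Col9a1 window lies before the start of NM_007740, which was near 0 FPKM in the other deposited table, and other starts of this gene were not examined.

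**Figure D4:**
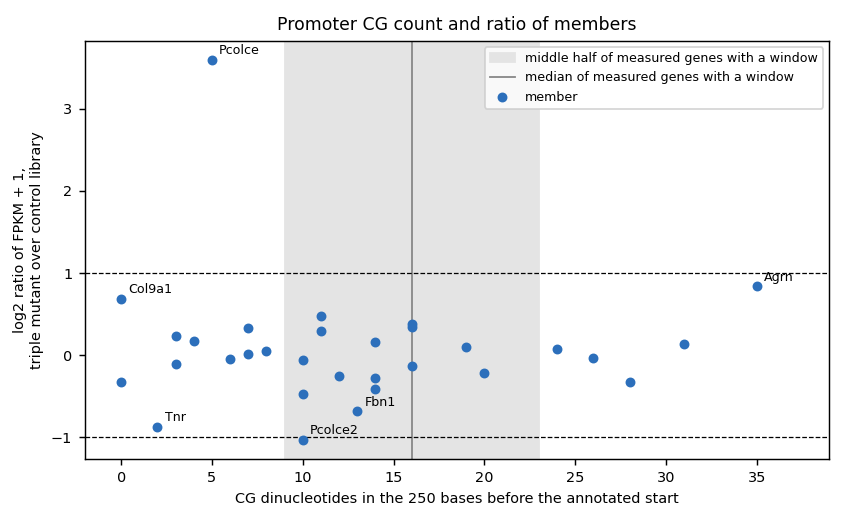
CG dinucleotides in the 250 bases before the annotated start (horizontal) against the log2 ratio of FPKM + 1, triple mutant over control library (vertical), 1 point for each measured member with a RefSeq window; the grey band and line mark the quartiles and median of measured genes and the dashed lines the size rule. Pcolce at 5 CG dinucleotides stands alone at the top, and the other members spread around 0 at every CG count.

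Other genes of the matrix pathway were counted by lists of function. Of 19 measured other collagen chains, 0 were higher and 2 were lower by the size rule, both chains of the type VIII network: Col8a1 had 1.24 FPKM in the mutant library and 6.48 in the control library, and Col8a2 had 0.334 and 2.81. Only 10 of the 19 lay within 0.5 of 0, against 89.9% of all measured genes, of which the rule put 1.84% higher and 0.648% lower. Among these collagen chains short of the rule, Col5a3 had 3.74 FPKM in the mutant library and 1.61 in the control library, and Col20a1 had 2.24 and 4.94. With a pseudocount of 0.1 FPKM the counts were 4 higher and 5 lower, beside 2.94% higher and 1.36% lower of all measured genes. Type VIII collagen is known from Descemet's membrane of the cornea and from vessel walls, and lens and pigment cell markers were lower in the same library. Their part in the type VIII values was not tested. Of 19 measured other collagen processing genes none was past the rule, and their median log2 ratio was 0.17. P4hb, the shared subunit of prolyl hydroxylases, had 116 FPKM in the mutant library and 94.0 in the control library, and the isomerase gene Ppib had 141 and 105. None of 11 other basement membrane genes, 14 other neural matrix genes or 17 matrix receptors passed the rule. Among 19 proteases and inhibitors 1 was higher, the aggrecanase and versican-cleaving gene Adamts1, with 16.3 FPKM in the mutant library and 7.11 in the control library.

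Fibroblast markers, as the usual source of fibrillar collagen, were low in both libraries. Of 12 listed, 6 were measured and none was past the size rule. Pdgfra, which retinal astrocytes also express, had 5.90 FPKM in the mutant library and 3.95 in the control library, and Postn had 1.74 and 1.29. Thy1, at 134 FPKM in the mutant library and 191 in the control library, is also a ganglion cell gene and made up most of the list's sum of 145 and 200 FPKM. Tcf21 was listed at 0 in both libraries, and Dpt was listed at 0 in the control library and at 0.024 FPKM in the mutant library. Of 6 measured ciliary body and iris markers 1 was lower, Aqp1, and none of 7 measured rod markers was past the rule. Of 14 Mueller glia markers 1 was higher, and the median log2 ratio was 0.27. Of 4 measured astrocyte markers, Gfap (25.6 FPKM in the mutant library, 7.72 in the control library) and Aldh1l1 (13.1 and 5.67) were higher. The part of the astrocyte and microglia markers in the Pcolce value was not tested.

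**Figure D5:**
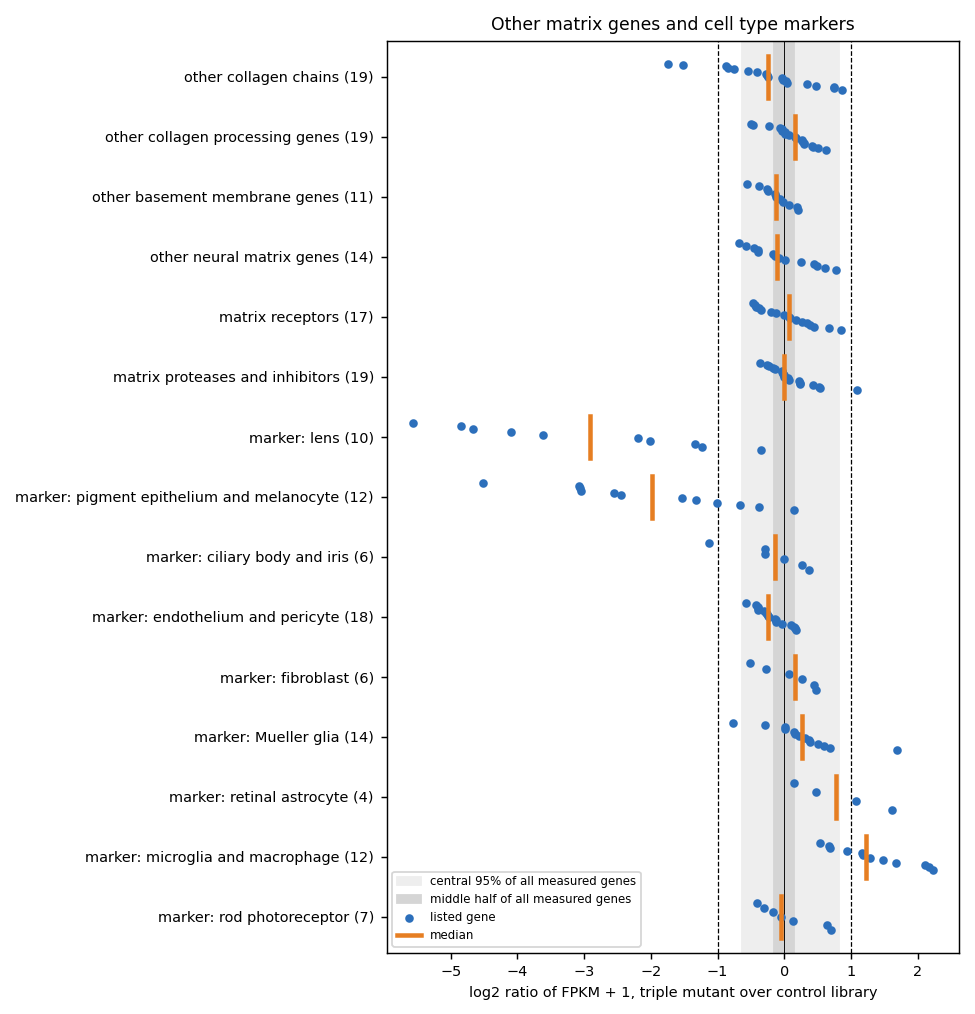
Log2 ratio of FPKM + 1, triple mutant over control library, for measured genes (1 point each) of the other matrix lists and the cell type marker lists, with list medians as bars, ranges of all measured genes as grey bands and the size rule as dashed lines. The matrix lists have medians from -0.25 to 0.17, the lens markers -2.91 and the microglia and macrophage markers 1.23.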

How the data were processed

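Retinal RNA was sequenced from 1 triple mutant and 1 control library, grouped by the genotype label. Per the submitters' processing notes, TopHat2 2.0.8 and Cuffdiff 2.1.1 were used with mm10; the annotation, the read layout and the use of strand are not given in these sources. The authors deposited FPKM for each RefSeq transcript and library, as 2 tables from Cuffdiff, per the file headers. The authors' q-values were read from the table with symbols.

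FPKM was summed over each symbol's transcripts; a gene was used where 1 transcript had status OK and none had failed. The size rule, its filter (at least 1 FPKM) and its pseudocount (1 FPKM) are given with the results; the pseudocount understates ratios of low genes. Counting intervals (95%, exact binomial) were computed for single-transcript genes from fragments recovered from FPKM steps: 70.6% of 269 low mutant values and 72.2% of 288 low control values were whole multiples within 10% of a step, with GENCODE M21 lengths less 150 bases, a fragment length chosen to maximise these shares. All 48 members' loci overlapped the GENCODE gene of the same name. The steps, rule and intervals were tested only on simulated data that held counting error alone. Sharing of fragments between transcripts and variation between animals were not simulated, so their effect on the values here was not tested. Every member could be named; other listed genes were named by size of ratio, with Col9a2, Col9a3, Col4a5, Col5a3, Col20a1, P4hb, Ppib and the neighbours of Pcolce added after their values were seen. Members and lists were chosen with earlier results of these data known. Python 3.11.15, NumPy 2.4.6, pandas 2.3.3 and SciPy 1.17.1 were used.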

Additional observations from a re-analysis of the deposited data

How the results depend on the processing

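Pcolce was higher by the size rule in all 7 alternatives, with log2 ratios from 2.68 (pseudocount of 5 FPKM) to 3.96 (pseudocount of 0.1). Pcolce2 lay at the threshold: 2 members were lower with a pseudocount of 0.1, Pcolce2 and Col4a3 (-1.10), and 0 with a pseudocount of 5 (Pcolce2 at -0.48), in the other deposited table (-0.98) and under a filter of 5 FPKM, a level Pcolce2 does not reach. The members' median was 0.12 under that filter, and the median of all measured genes was 0.05 in the other deposited table. Other collagen chains had 4 higher and 5 lower with a pseudocount of 0.1, 0 lower with 5 and 1 lower under the filter of 5 FPKM. With a pseudocount of 0.1, 1 other neural matrix gene was lower and 1 matrix receptor higher; with 5, 0 proteases or inhibitors were higher. Over all measured genes, 390 were higher and 180 lower with a pseudocount of 0.1, 92 and 33 with 5, and 156 and 56 under the filter of 5 FPKM. The basement membrane median stayed below 0 in all 7, from -0.24 to -0.09. No paired analysis was possible because there was 1 library per genotype, and no library could be left out. Depth limits Dcn, Lum and transcripts near 0: a floor of 3 fragments over 2 kb was 0.0288 FPKM in the mutant and 0.0335 in the control library.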
